A study of Mus musculus with 16 samples.

Results

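The mRNAs of the cytoplasmic ribosome's proteins were followed in blood neutrophils that carried or lacked the lymphotoxin β receptor, which binds LIGHT and lymphotoxin. Members were every gene symbol of the count table that is written Rpl or Rps followed by a number (with an optional a, x, y or l and a further digit), together with Rplp0, Rplp1, Rplp2 and Rpsa. This took in 84 of 23337 symbols, 33 of the small 40S subunit and 51 of the large 60S subunit. The rule itself used no measured value, but it was chosen with earlier results of these data known. In none of the comparisons did a member pass an adjusted p of 0.05. Of all 9213 genes tested by edgeR, 3.48% passed with stimulation in neutrophils with the receptor and 3.73% in those without it. Between the genotypes 0.0217% passed with stimulation and 0.0217% without, and 0% passed for the difference between the genotypes in their response.

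The small subunit reads the mRNA and the large subunit joins the amino acids, and a cell needs about equal numbers of both, so ribosomal protein genes are usually expressed together. Many of their mRNAs begin with a C followed by a run of pyrimidines, the terminal oligopyrimidine or TOP tract, through which mTORC1 and the LARP1 protein adjust their translation without a matching change in mRNA level. Neutrophils leave the bone marrow as mature cells with little protein synthesis, and their ribosomal protein mRNA is low beside that of dividing cells.

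The mice were 8 weeks old and of the strain given as C57/Bl6. LTβRΔN mice carried the floxed allele (Ltbrfl/fl) and Mrp8-Cre, which deletes Ltbr in neutrophils, and the controls (Ctrl) were littermates with the floxed allele and no Cre. Neutrophils were taken from blood by negative selection with magnetic beads, and the labels call each library stimulated or unstimulated. By the protocol, cells were kept for 2 h in TNF (100 ng/ml), GM-CSF (100 ng/ml) and IL-6 (50 ng/ml), and LIGHT was present in some cultures (500 ng/ml), whereas the series' design text gives the cytokines themselves as the variable. Because no label says whether LIGHT was added to a given library, groups are named by their labels only. There were 3 unstimulated and 4 stimulated Ctrl libraries and 4 unstimulated and 5 stimulated LTβRΔN libraries, and nothing in the labels says that each came from a separate mouse, so the spread between them may be partly technical.

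The 16 libraries held 1094335 to 11932653 counts. Ltbr, the targeted gene, lay between 84.6 and 154 CPM (counts scaled by the TMM-adjusted library size) in the 7 Ctrl libraries and between 0.705 and 18.1 CPM in the 9 LTβRΔN libraries, without overlap. The summed level of 13 neutrophil markers was 50717 to 80953 CPM. Libraries 68 (LTβRΔN unstimulated) and 76 (LTβRΔN stimulated) had the lowest neutrophil marker sums, 50717 and 52735 CPM. Of the B cell list, Cd79b, Ms4a1, Ebf1, Pax5 and Blk had 0 counts in every library, although the list's sum was 10.8 to 26.2 CPM in unstimulated and 168 to 381 CPM in stimulated libraries, mainly through Cd74, an antigen presentation gene that B cells share with other cells. The 10 platelet markers, none of them at 0 in all libraries, summed to 8.98 to 31.8 CPM in Ctrl unstimulated, 10.99 to 237 CPM in Ctrl stimulated, 10.4 to 16.9 CPM in LTβRΔN unstimulated and 12.01 to 21.2 CPM in LTβRΔN stimulated libraries. In bulk RNA, fewer cells of a type and less RNA per cell cannot be told apart.

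One feature that the choice of members did not use is the start of the gene. Of 63 members with a start site in the RefSeq table (GRCm38.p6), 39 (61.9%) had a C followed by at least 4 pyrimidines that began within 10 bases of the annotated start, against 9297 of 27025 genes (34.4%). The windows of 5 members that have a run and that the results return to are given from 15 bases before the start, with the pyrimidine runs in capitals. Rps9 is the member with the highest level, Rps6 encodes the protein phosphorylated by the S6 kinases downstream of mTORC1, Rps2 and Rps12 had the smallest unadjusted p-values for stimulation in LTβRΔN neutrophils, and Rpl13a is known as a brake on translation of inflammatory mRNAs in myeloid cells.
Rps9, chr7:3704026-3704055, plus strand: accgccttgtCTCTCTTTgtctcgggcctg
Rps6, chr4:86857353-86857382, minus strand: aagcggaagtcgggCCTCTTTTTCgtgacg
Rps12, chr10:23787195-23787224, minus strand: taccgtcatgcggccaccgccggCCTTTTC
Rps2, chr17:24720048-24720077, plus strand: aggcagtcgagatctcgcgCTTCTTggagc
Rpl13a, chr7:45128731-45128760, minus strand: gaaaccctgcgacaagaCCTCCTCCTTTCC
A run in such a window is a description of the annotated start, and a start that lies some bases away would show none. The results also return to Rps16, Rpl41, Rps3, Rpl5 and Rpl11, whose windows held no run. For Rplp0 and Rpsa no run was found: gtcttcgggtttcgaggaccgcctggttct is the window of Rplp0 (chr5:115559452-115559481, plus strand) and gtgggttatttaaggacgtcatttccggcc that of Rpsa (chr9:120127751-120127780, plus strand).

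Counts on ribosomal protein symbols made up a small part of every kind of library. This is the share of reads assigned to these symbols, and how reads with several matches were counted is not given in the sources used here. The members together took 0.707 to 0.729% of the counts in Ctrl unstimulated, 0.563 to 0.727% in Ctrl stimulated, 0.546 to 0.773% in LTβRΔN unstimulated and 0.521 to 0.687% in LTβRΔN stimulated libraries. On the TMM scale their sum was 6479 ± 140 CPM (SD, n = 3) in Ctrl unstimulated and 6665 ± 681 CPM (SD, n = 4) in Ctrl stimulated neutrophils. It was 6313 ± 1110 CPM (SD, n = 4) in LTβRΔN unstimulated and 6785 ± 770 CPM (SD, n = 5) in LTβRΔN stimulated neutrophils. On the TMM scale all 4 ranges overlapped, and the means of the groups lay closer together than the libraries within the LTβRΔN groups. As a share of counts, all LTβRΔN stimulated libraries lay below all Ctrl unstimulated ones, while the other pairs of groups overlapped.

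**Figure D1:**
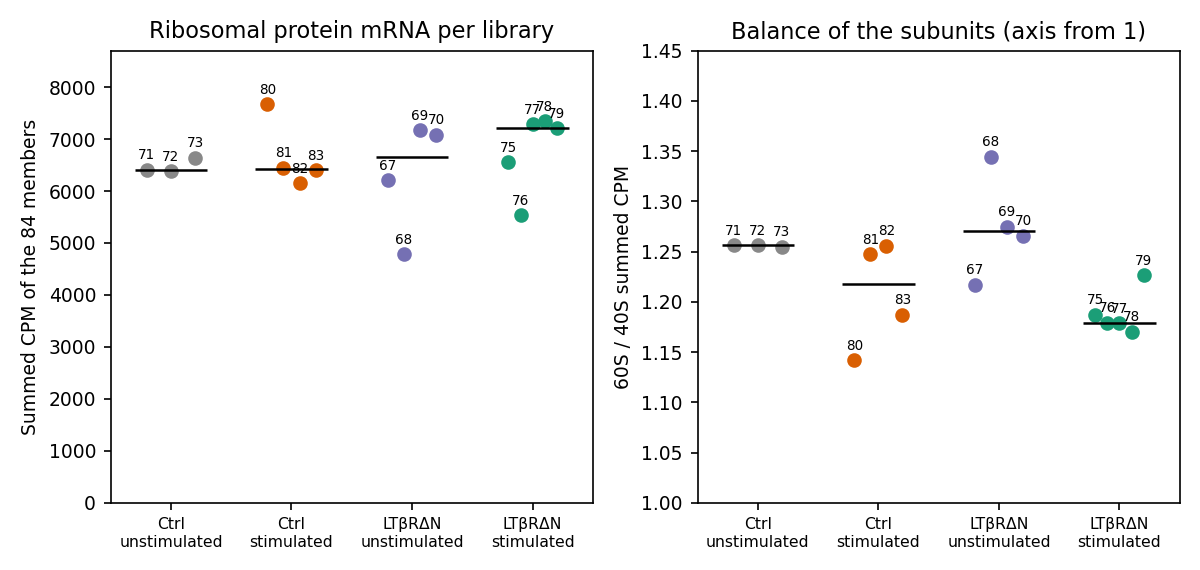
Left, summed CPM of the 84 members in each library (points, with library numbers) by group. Right, the ratio of the 60S to the 40S sum on an axis that starts at 1. Lines are group medians, and libraries 68 and 76 have the lowest sums, at 4781 and 5530 CPM.

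Some libraries stood apart. Library 68, the shallowest at 1094335 counts of which 5974 fell on members, had a member sum of 4781 CPM, and 4 of the 80 members tested were above their own median of the 16 libraries. Library 76 had 5530 CPM and 10 of 80 members above their median. Both carry the same number in the column names. Library 80 (Ctrl stimulated) had the highest sum, 7668 CPM, with 62 of 80 members above their median. Libraries 68 and 76 are thus also the libraries with the lowest neutrophil marker sums. The monocyte marker sum was 597 CPM in library 68, the highest of the 16 libraries, and 441 CPM in library 76. The part of neutrophil purity in their ribosomal protein levels was not tested.

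Both subunits kept nearly the same proportion. The 60S sum divided by the 40S sum was 1.25 to 1.26 in Ctrl unstimulated libraries, 1.14 to 1.26 in Ctrl stimulated, 1.22 to 1.34 in LTβRΔN unstimulated and 1.17 to 1.23 in LTβRΔN stimulated libraries. In LTβRΔN neutrophils 4 of the 5 stimulated libraries were below all 4 unstimulated ones, and the remaining one (library 79 at 1.23) was above library 67 (1.22). These are sums over different genes, so the ratio is no count of subunits.

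**Figure D2:**
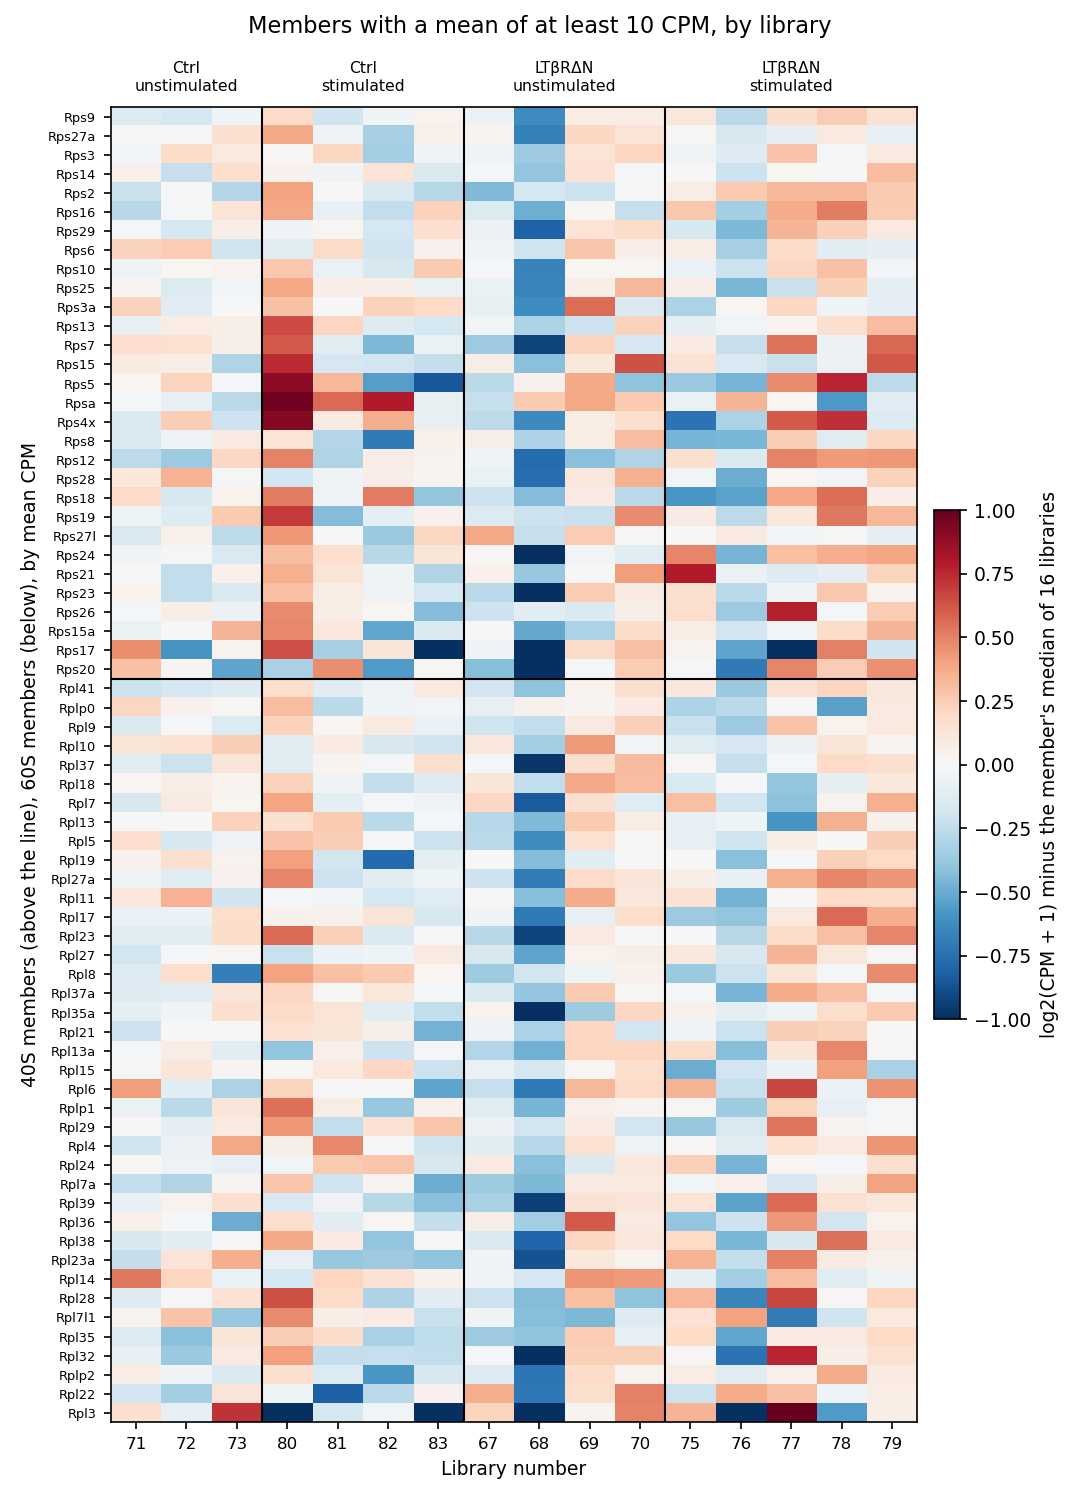
Deviation of each member reported here with a mean of at least 10 CPM (rows, 40S above the line and 60S below) from its own median over the 16 libraries (columns, by group), on the log2(CPM + 1) scale with colours limited at 1 in either direction. The column of library 68 is blue for nearly all members, that of library 80 is mostly red, and no block of columns stands out as a group.

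Levels of single members spread far more widely than any difference between groups. Per kb of annotated transcript (GENCODE M21, GRCm38) the median member had 65.4 CPM as a mean of 16 libraries, and the members from the 25th to the 75th percentile lay between 26.0 and 116 CPM per kb. The highest was Rps9, a 40S protein near the mRNA entry side, at 1245 CPM per kb, 19.0 times the median member. Rpl41, the shortest ribosomal protein, was at 776, Rps27a, made as a fusion with ubiquitin, at 479 and Rps29, a zinc-binding 40S protein, at 268 CPM per kb, all among the highest members. Rps9 alone took 12.8 to 15.5% of the counts on members. Its gene lies on chromosome 7 from 3703993 to 3706897 with 5 exons, and 67.0% of the 50-base words of its transcript occur in no other annotated gene.

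Rps9 measured 860, 840 and 916 CPM in Ctrl unstimulated libraries and 1079, 823, 919 and 969 CPM in Ctrl stimulated ones. In LTβRΔN neutrophils it measured 907, 611, 992.5 and 995.0 CPM without and 1019, 781, 1074, 1125 and 1048 CPM with stimulation. The groups overlapped, and its log2 fold changes with stimulation were 0.12 in Ctrl and 0.20 in LTβRΔN neutrophils.

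**Figure D3:**
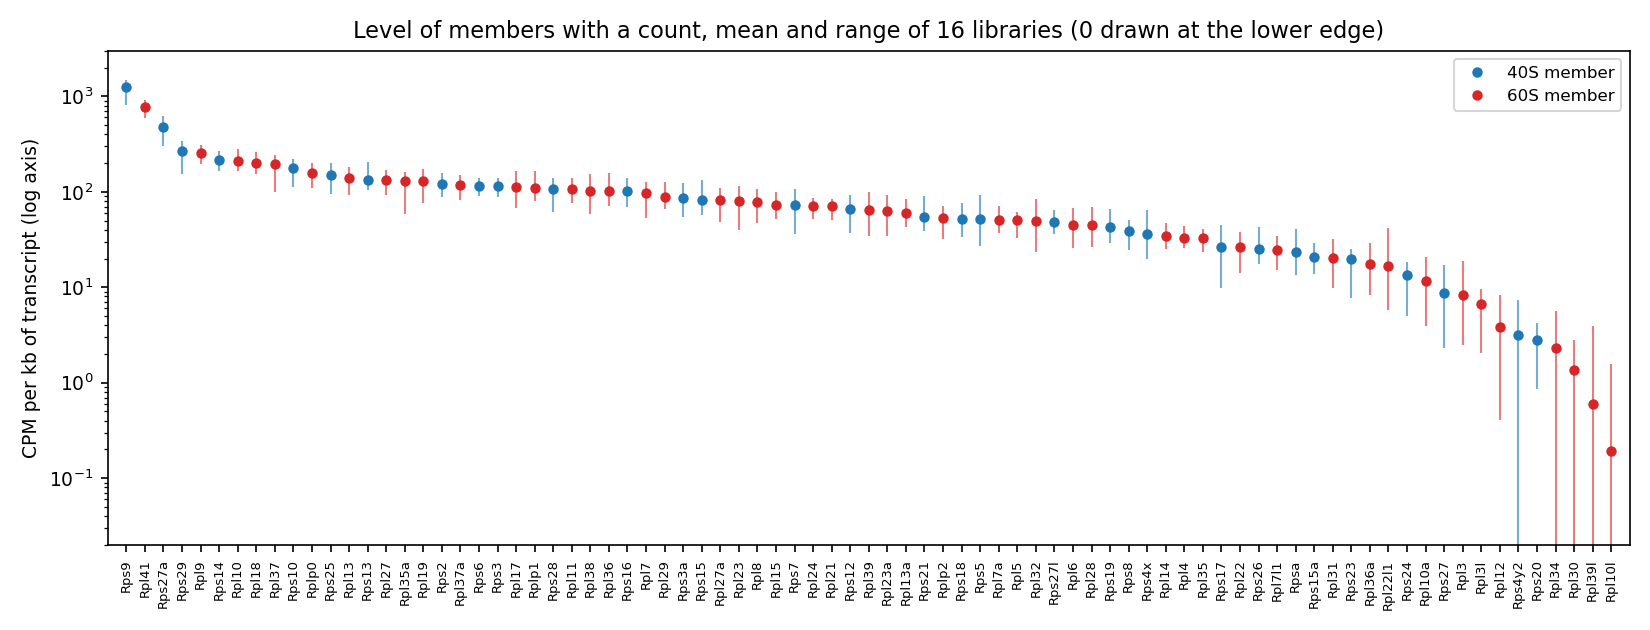
CPM per kb of transcript on a log axis for the members with a count that are reported here, ranked by their mean over 16 libraries (points) with the lowest and highest library (lines). Rps9 and Rpl41 lead at 1245 and 776 CPM per kb, and the lower end holds paralogs of restricted tissues beside general members such as Rpl34 and Rpl30.

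The lowest members were of different kinds. Rpl39l and Rpl10l, paralogs known from the testis, had 31 and 10 counts in all 16 libraries together (0.593 and 0.192 CPM per kb). Rpl34, Rpl30 and Rpl26 belong to every ribosome, yet had 107, 59 and 0 counts in the 16 libraries. For Rpl26 the 0 of 98029304 counts allows up to 0.0306 CPM (3 counts over all libraries), a limit that covers counting error only and holds for reads assigned to this symbol. Rpl26, Rpl30, Rpl39l and Rpl10l did not pass the filter on low counts, so 80 of 84 members were tested.

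Nearly all members share sequence with copies elsewhere in the genome. Of the 84, 81 share at least one 50-base word with an annotated pseudogene, the median member shares words with 10 other genes, and Rpl7a does so with 123. A median of 43.5% of a member's words were its own, from 1.4% for Rps27 to 100% for Rpl3l and Rpl39l. How reads that matched several places were counted is not given in the sources used here, so a level can hold reads of a copy or lack reads given to one. Levels did not follow this share closely: the median was 63.2, 86.4, 59.5 and 54.0 CPM per kb for members with under 20, 20 to 40, 40 to 60 and over 60% own words, and Spearman's rho over the 84 members was −0.13.

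The 4 general members below show the kind of word that is shared. Each is a coding stretch within one exon (minus strand genes read 5′ to 3′), and was found in 6, 10, 6 and 5 other annotated genes, respectively.
Rpl26, chr11:68902353-68902402: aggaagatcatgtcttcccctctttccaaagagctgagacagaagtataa
Rpl30, chr15:34441297-34441346: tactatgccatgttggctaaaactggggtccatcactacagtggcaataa
Rpl34, chr3:130729089-130729138: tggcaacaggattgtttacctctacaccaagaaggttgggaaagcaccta
Rps27, chr3:90212950-90212999: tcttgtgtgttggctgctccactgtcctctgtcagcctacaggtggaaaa
Whether multiple matches account for their low counts was not tested. Their own words made up 28.7, 23.6, 49.4 and 1.4%, in the order printed.

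With stimulation, no ribosomal protein gene passed the test in Ctrl neutrophils. By edgeR's quasi-likelihood test with Benjamini-Hochberg adjustment, 0 of 80 members passed an adjusted p of 0.05, where 3.48% of 9213 genes did, and 1 member (Rpsa) had an unadjusted p under 0.05, where 11.4% of genes did. DESeq2's Wald test called 0 members here and in each of the other comparisons. The median log2 fold change of the members was 0.07 (47 above and 33 below 0), beside −0.02 over all genes. Without library 80 it was −0.01, with 33 above and 47 below 0, so its direction rests on that library. From the 25th to the 75th percentile the members spanned −0.09 to 0.15, and all genes −0.37 to 0.36. For 66 of the 80 members the 95% interval stayed within a 2-fold difference in both directions, as it did for 3016 of all 9213 genes. The platelet marker sum was highest in libraries 82 and 80, at 237 and 68.5 CPM, and its part in the values of stimulated Ctrl neutrophils was not tested. The 14 immature neutrophil markers, of which Elane, Mpo and Ctsg had 0 counts in every library, summed to 1882 to 2573 CPM in Ctrl unstimulated, 1715 to 3292 CPM in Ctrl stimulated, 1967 to 2329 CPM in LTβRΔN unstimulated and 1807 to 2461 CPM in LTβRΔN stimulated libraries. Of the 7 tested, 7 were above 0 with stimulation in Ctrl neutrophils (median log2 fold change 1.10, 0 called by edgeR, 2 with an unadjusted p under 0.05) and 1 was above 0 between stimulated genotypes (median −1.56, 0 called by edgeR, 3 with an unadjusted p under 0.05), and their part was not tested.

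In LTβRΔN neutrophils stimulation gave 0 of 80 members called, where 3.73% of genes were called, and 3 members with an unadjusted p under 0.05 (Rps2, Rps12 and Rps16), where 13% of genes had one. The median log2 fold change was 0.13 (54 above and 26 below 0), beside −0.03 over all genes. Without library 68 it was 0.01, with 41 above and 39 below 0. With the library index as a covariate the medians were −0.002 in Ctrl and 0.04 in LTβRΔN neutrophils. All 9 stimulated libraries carry index S521 and 6 of the 7 unstimulated ones S520, so index and treatment label can hardly be told apart. Scaled by library totals alone, the median gene was 0.27 lower in stimulated Ctrl and 0.21 lower in stimulated LTβRΔN libraries, and the members' medians were −0.18 (6 above and 74 below 0) and −0.05 (28 above and 52 below 0), above all genes by 0.096 and 0.16.

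The genotype comparisons gave the same count. Between LTβRΔN and Ctrl neutrophils, 0 of 80 members were called with stimulation and 0 without, where 0.0217% of genes were called in each. At an unadjusted p under 0.05 there were 2 members with stimulation (Rpsa among them, where 6.41% of genes had such a p) and 0 without (2.8% of genes). The members' median log2 fold change, LTβRΔN minus Ctrl, was 0.02 with stimulation (42 above and 38 below 0), beside −0.011 over all genes. In unstimulated neutrophils it was −0.06 (24 above and 56 below 0), beside −0.008 over all genes. Without library 68 the members' unstimulated median became 0.06, with 54 above and 26 below 0, so its direction rests on that library. Without library 80 the members' stimulated median became 0.09. In the interaction, the difference between the genotypes in their response, 0 members were called (0% of all genes). There 1 member had an unadjusted edgeR p under 0.05 (3.71% of genes). Of the 80 intervals 49 stayed within 2-fold, as did 2294 of all 9213 genes. The comparisons share groups and are not independent of each other.

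**Figure D4:**
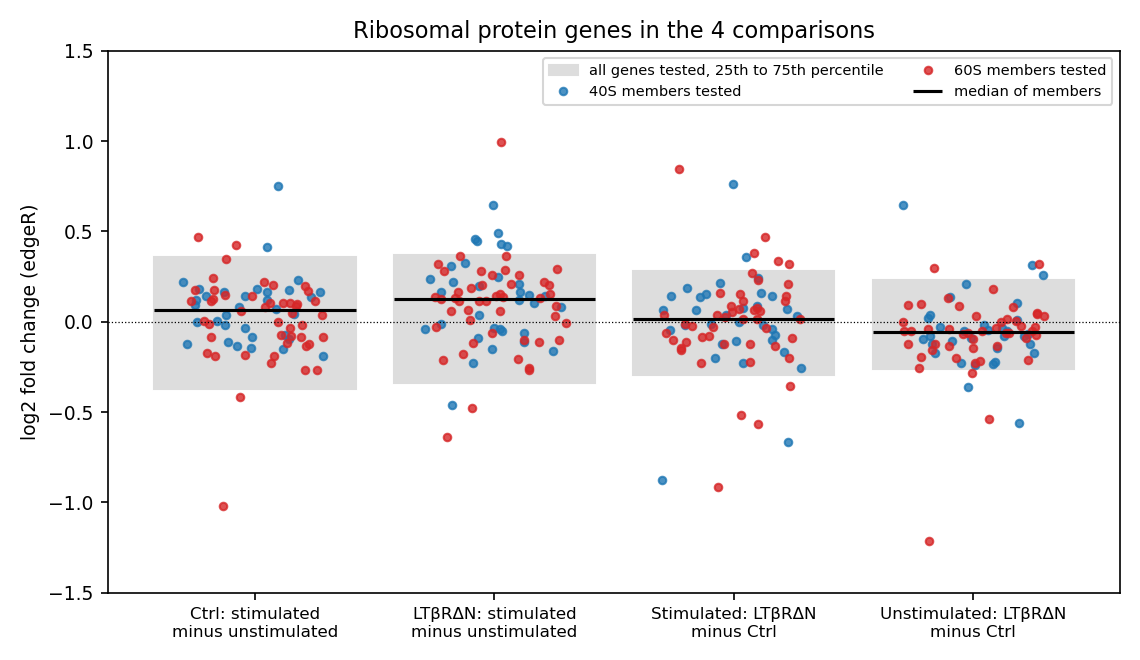
Log2 fold changes of the 80 members tested (points, blue 40S and red 60S) in the 4 comparisons, with the members' median (line) and the 25th to 75th percentile of all 9213 genes (grey). Medians lie between −0.06 and 0.13, most members sit inside the grey range, and the members farthest from 0 are mainly those with few counts.

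Rpsa, the 40S protein also known as the laminin receptor precursor, stood farthest from the others among well-counted members. The gene lies on chromosome 9 from 120127689 to 120132369 with 6 exons. It measured 32.1, 30.7 and 26.8 CPM in Ctrl unstimulated and 64.6, 48.6, 57.1 and 31.0 CPM in Ctrl stimulated libraries. In LTβRΔN neutrophils it measured 27.7, 39.2, 43.0 and 39.2 CPM without and 31.1, 41.5, 33.1, 21.6 and 30.2 CPM with stimulation. In Ctrl neutrophils 3 of 4 stimulated libraries were above every unstimulated one, and library 83 lay within their range. Its log2 fold change with stimulation was 0.75 in Ctrl (SE, the standard error, 0.278, adjusted p = 0.214 by edgeR) and −0.23 in LTβRΔN neutrophils (SE 0.249, adjusted p = 0.825 by edgeR). The difference between these, −0.98 (SE 0.372), had an unadjusted edgeR p of 0.0148 and did not pass the adjustment over all genes. The 2 highest Rpsa libraries, 80 and 82, were also those with the highest platelet marker sums. Of the 8 platelet markers tested, 8 were above 0 with stimulation in Ctrl neutrophils (median log2 fold change 2.57, 0 called by edgeR). Between stimulated genotypes 0 were above 0 (median −3.19, 0 called by edgeR, 4 with an unadjusted p under 0.05). The part of platelet RNA in the Rpsa values was not tested. Rpsa shares words with 28 other genes, and 46.3% of its words are its own.

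Among 40S members, Rps2, which lines the mRNA entry channel, came nearest to the threshold. Its level was 87.2, 105, 102 and 119 CPM in LTβRΔN unstimulated and 125, 143, 149, 149 and 143 CPM in LTβRΔN stimulated libraries, with no overlap. The log2 fold change was 0.46 (SE 0.155, adjusted p = 0.132 by edgeR). In Ctrl neutrophils it measured 102, 119 and 96.9 CPM without and 157, 118, 107 and 97.1 CPM with stimulation, which overlapped, and the log2 fold change was 0.18 (SE 0.172). Rps2 was the only member without overlap in that comparison (7.28% of all genes tested had none) and was named after its values were seen, as it falls outside the rule for named genes. The annotation places the antisense RNA gene Snhg9 within its span, and whether strand was used in counting is not given in the sources used here. Rps2 shares words with 71 other genes, and 21.0% of its words are its own.

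Rps12, a 40S protein at the beak of the subunit, measured 31.4, 18.4, 23.8 and 25.9 CPM in LTβRΔN unstimulated and 36.1, 29.1, 45.8, 43.6 and 43.8 CPM in LTβRΔN stimulated libraries. Only library 76 (29.1 CPM) fell below the highest unstimulated library. The log2 fold change was 0.65 (SE 0.251, adjusted p = 0.220 by edgeR), and 0.23 (SE 0.275) in Ctrl neutrophils. Rps16, close to the P-site tRNA and also named after its values were seen, had a log2 fold change of 0.43 in LTβRΔN (SE 0.182, adjusted p = 0.285 by edgeR) and 0.14 in Ctrl neutrophils (SE 0.201). Rps12 shares words with 25 other genes and Rps16 with 89, and 9.9% and 58.4% of their words are their own.

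Of the 60S members, Rpl41 and Rpl10 were the only members whose Ctrl groups did not overlap, where 12.7% of all genes did not. Rpl41 measured 297, 307 and 316 CPM without and 389, 319, 337 and 369 CPM with stimulation, a log2 fold change of 0.20 (SE 0.150, adjusted p = 0.741 by edgeR). Rpl10, which joins the large subunit late in its assembly, measured 181, 185 and 198 CPM without and 154, 177, 149 and 145 CPM with stimulation, a log2 fold change of −0.27 (SE 0.157, adjusted p = 0.593 by edgeR). In LTβRΔN neutrophils both overlapped: the log2 fold changes there were 0.13 for Rpl41 and −0.12 for Rpl10. Between unstimulated genotypes only Rpl19, named after its values were seen, did not overlap (5.71% of genes did not), with 102, 110 and 101 CPM in Ctrl and 98.7, 72.8, 91.2 and 98.7 CPM in LTβRΔN libraries and a log2 fold change of −0.20 (SE 0.221). With stimulation no member was free of overlap between the genotypes (1.31% of genes were).

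**Figure D5:**
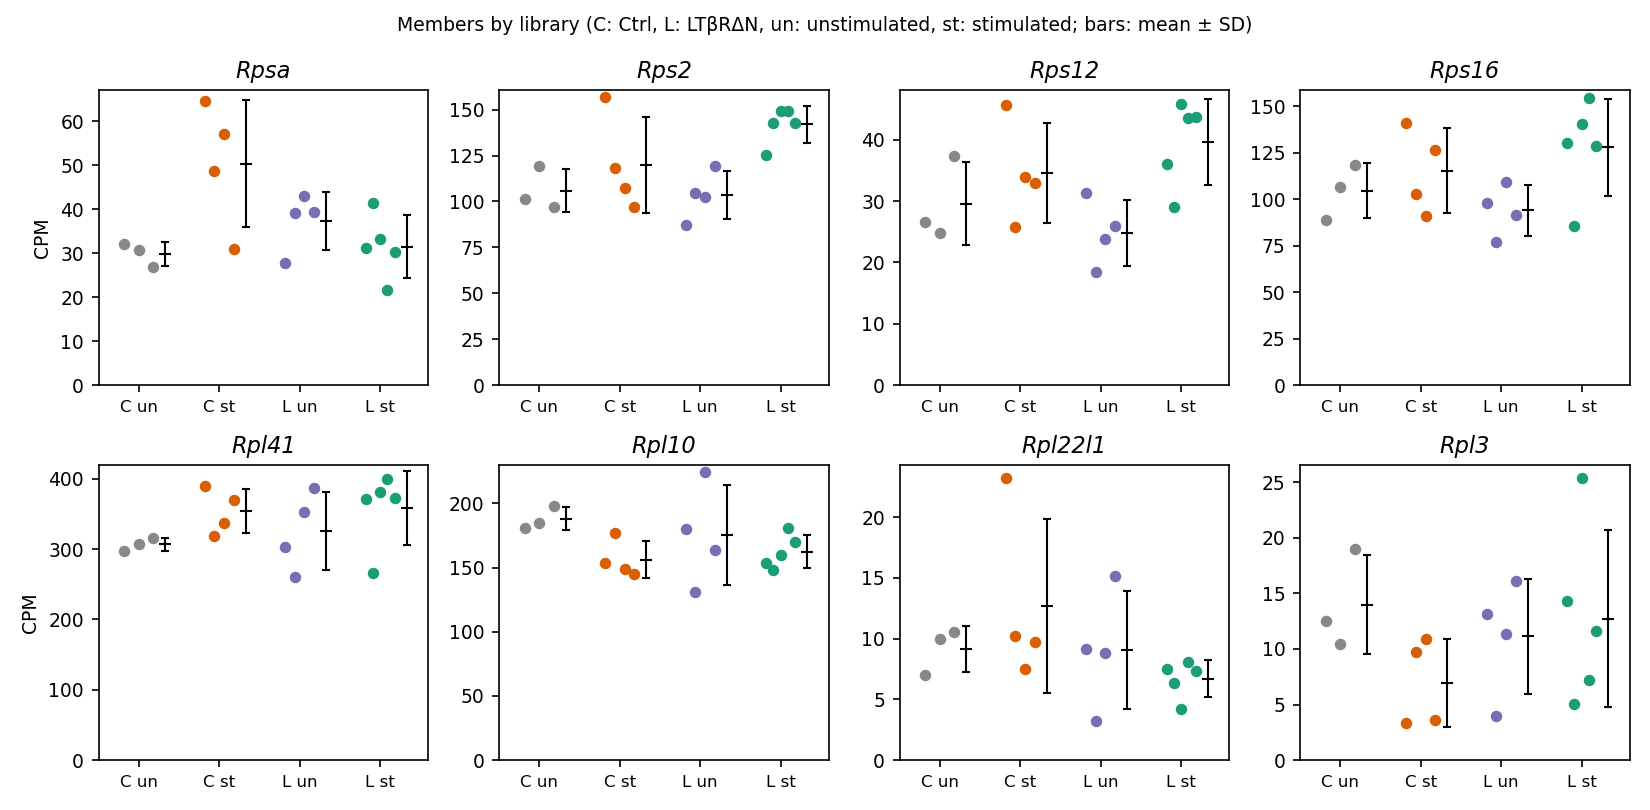
CPM of 8 members in each library (points) by group, with the mean and SD beside them; axes start at 0. Rps2 is higher in all 5 stimulated than in all 4 unstimulated LTβRΔN libraries, Rpsa is higher in 3 of 4 stimulated Ctrl libraries, and library 80 alone sets the spread of Rpl22l1 in its group.

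The fold changes farthest from 0 belonged mostly to members with few counts and wide errors. Rpl3, which reaches toward the peptidyl transferase centre, had 1072 counts over the 16 libraries. It measured 12.5, 10.4 and 18.9 CPM in Ctrl unstimulated and 3.38, 9.73, 10.9 and 3.62 CPM in Ctrl stimulated libraries, a log2 fold change of −1.02 (SE 0.581, adjusted p = 0.578 by edgeR). Rpl12 at the base of the stalk had 465 counts in all. Its log2 fold change was 0.99 (SE 0.740) with stimulation in LTβRΔN neutrophils and −1.21 (SE 0.801) between the unstimulated genotypes, at a mean level of 3.79 CPM per kb. Rps27, with 276 counts, had 0.76 (SE 0.805) between stimulated and 0.65 (SE 0.899) between unstimulated genotypes. Rpl34 and Rps4y2 had 107 and 268 counts, and the SE of Rps4y2 was 1.23 or more in each of the 4 comparisons. None of these genes had a 95% interval that left out 0.

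The other extremes by rule were smaller. With stimulation in Ctrl neutrophils, Rpl23a at the nascent chain exit had a log2 fold change of −0.41 and Rpl8, a core protein of the peptidyl transferase region, one of 0.42. With stimulation in LTβRΔN neutrophils Rps24 had 0.49. Between stimulated genotypes Rpl23a had 0.47, and between unstimulated genotypes Rpl10a had −0.54 and Rpl22 had 0.32. None passed the adjustment.

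Of the members with roles of their own, none passed the test. The stalk proteins Rplp0, Rplp1 and Rplp2, which recruit the elongation factors, had log2 fold changes with stimulation of −0.09, 0.18 and −0.13 in Ctrl and −0.21, 0.06 and 0.20 in LTβRΔN neutrophils. Rpl5 and Rpl11, which bind Mdm2 together with 5S rRNA when ribosome assembly fails, had 0.10 and −0.19 in Ctrl and 0.15 and −0.03 in LTβRΔN neutrophils. Rps6 had −0.12 and −0.09, and Rpl13a −0.12 and 0.14, in the same order. Rps19, whose human counterpart is mutated in Diamond-Blackfan anaemia, had 0.08 and 0.17. Rps3, known also as a partner of NF-κB in the nucleus, had −0.11 and 0.04, Rps27a −0.02 and −0.01, and Rpl38, linked to translation of Hox mRNAs, 0.13 and 0.17. Of the fold changes in this paragraph, none was farther from 0 than that of Rplp0 in LTβRΔN neutrophils. Rpsa, described above, was farther from 0, at 0.75 in Ctrl and −0.23 in LTβRΔN neutrophils.

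Several paralog pairs differed in level, and a difference in response within a pair was not tested. Rps27 and Rps27l, the second of which is a target of p53, encode proteins of equal length from coding sequences of 252 bases that differ at 60 positions (76.2% identity). The differing bases are in capitals in both sequences, and 77.6% of the 50-base words of Rps27l are its own, against 1.4% for Rps27.
Rps27, coding sequence, gene at chr3:90212522-90213651, minus strand: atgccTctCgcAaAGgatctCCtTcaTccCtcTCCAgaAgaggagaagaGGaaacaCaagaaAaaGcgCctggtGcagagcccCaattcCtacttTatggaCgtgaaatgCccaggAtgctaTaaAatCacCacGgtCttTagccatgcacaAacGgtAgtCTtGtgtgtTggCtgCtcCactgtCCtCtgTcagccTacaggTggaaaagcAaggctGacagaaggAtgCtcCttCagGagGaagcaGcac
Rps27l, coding sequence, gene at chr9:66946086-66949516, plus strand: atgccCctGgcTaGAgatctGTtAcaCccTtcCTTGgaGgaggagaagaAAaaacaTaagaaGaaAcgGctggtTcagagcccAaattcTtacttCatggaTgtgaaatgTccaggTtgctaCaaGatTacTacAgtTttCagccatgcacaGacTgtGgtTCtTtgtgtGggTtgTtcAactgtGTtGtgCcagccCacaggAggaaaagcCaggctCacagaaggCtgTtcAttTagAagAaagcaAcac
Rps27l had 48.6 and Rps27 8.65 CPM per kb over 16 libraries, and the part of shared words in this order was not tested. Rps27l measured 21.2, 24.6 and 19.7 CPM in Ctrl unstimulated and 32.3, 23.7, 18.1 and 27.5 CPM in Ctrl stimulated libraries, and 20.01 to 31.2 and 22.1 to 25.2 CPM in the 2 LTβRΔN groups. Its 4 log2 fold changes lay between −0.15 and 0.26.

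Rpl7 and Rpl7l1 stood at 96.8 and 24.4 CPM per kb, Rps4x at 36.5 CPM per kb against 3.17 for Rps4y2, which the annotation holds as the processed copy Rps4l on chromosome 6. Rpl22, known to repress the mRNA of its paralog, and Rpl22l1 were at 26.3 and 16.8 CPM per kb. Rpl22l1 measured 6.997, 9.97 and 10.5 CPM in Ctrl unstimulated and 23.2, 10.2, 7.53 and 9.74 CPM in Ctrl stimulated libraries, and 4.23 to 8.08 CPM in the 5 stimulated LTβRΔN libraries. Its log2 fold change between stimulated genotypes was −0.91 (SE 0.485, adjusted p = 0.806 by edgeR), with library 80 more than 2-fold above the next one in its group. Rpl39 was at 64.5 and Rpl10 at 211 CPM per kb, against 0.593 and 0.192 for Rpl39l and Rpl10l.

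Rpl3l, the form of heart and skeletal muscle, was listed at 2.82 to 13.2 CPM and Rpl3 at 3.38 to 25.4 CPM. Per kb this was 6.66 and 8.22 CPM. All words of Rpl3l are its own and 14.4% of those of Rpl3. The gene of Rpl3l (chromosome 17, 24727820 to 24736143, plus strand) ends 498 bases before Sepx1 (now Msrb1, 24736642 to 24742778, same strand), a selenoprotein gene with 843 to 1249 CPM. Whether reads of that neighbour reach the counts of Rpl3l was not tested.

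Genes that work with the ribosome were taken from lists written for this purpose. Of all genes tested, edgeR called 3.48% with stimulation in Ctrl and 3.73% in LTβRΔN neutrophils. Of 11 elongation and termination genes tested, 1 rose with stimulation in both genotypes and 0 fell. This was Eif5a, the hypusine-carrying factor that helps stalled ribosomes form peptide bonds. In Ctrl neutrophils it went from 470 to 567 CPM in unstimulated to 848 to 1015 CPM in stimulated libraries, a log2 fold change of 0.82 (SE 0.113, adjusted p = 2.39e-05 by edgeR). In LTβRΔN neutrophils it went from 508 to 578 to 915 to 1062 CPM, a log2 fold change of 0.88 (SE 0.100, adjusted p = 1.27e-06 by edgeR). Every stimulated library was above every unstimulated one in both.

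Of 39 initiation genes tested, 0 rose and 1 fell with stimulation in Ctrl neutrophils, and 0 were called in LTβRΔN neutrophils. The one was Eif1a, a start codon scanning factor, which fell by 0.92 on the log2 scale from 105 to 143 CPM to 32.0 to 89.1 CPM (SE 0.248, adjusted p = 0.0378 by edgeR). That call was lost under 9 of the 28 other settings. Of 73 ribosome biogenesis genes, 23 genes of the mTORC1, LARP and Myc control of ribosomal protein production (the TOP control list), 14 rescue and quality control genes and 4 other ribosome-bound genes, 0 were called by edgeR in any comparison. Their median log2 fold changes with stimulation were −0.07, −0.04, −0.08 and 0.14 in Ctrl neutrophils and −0.01, 0.14, 0.18 and 0.12 in LTβRΔN neutrophils. Unadjusted p-values under 0.05 were found for 4, 5, 0 and 0 of them in Ctrl and 2, 4, 2 and 0 in LTβRΔN neutrophils, where 11.4% and 13% of all genes had one. DESeq2 called 428 of 9213 genes with stimulation in Ctrl and 476 in LTβRΔN neutrophils. Beyond Eif5a and Eif1a, these included Mxd1, an antagonist of Myc, with log2 fold changes of 0.36 in Ctrl and 0.31 in LTβRΔN neutrophils. They also included Eif5 in Ctrl (0.38) and Rnf10, which marks stalled 40S subunits with ubiquitin, in LTβRΔN neutrophils (−0.49). Between the genotypes 0 genes of the 6 lists were called by edgeR or DESeq2, with or without stimulation. Of all genes tested, edgeR called 0.0217% in each, and DESeq2 called 14 with and 4 without stimulation. At an unadjusted edgeR p under 0.05 there were 1 elongation, 3 initiation, 2 biogenesis, 1 TOP control and 1 rescue gene with stimulation and 0, 2, 2, 3 and 1 without, where 6.41% and 2.8% of all genes had one.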

How the data were processed

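Neutrophil RNA of 16 libraries was sequenced with single-end reads. What the authors deposited is 1 table of raw counts for each gene symbol, not normalized. The submitters' processing notes name Bowtie 1.0.0, TopHat 1.4.1, HTSeq 0.7.1 and mm10, and the read length, treatment of multiple matches and use of strand are not given in the sources used here. Groups were taken from the genotype and treatment labels. The libraries held 1094335 to 11932653 counts, and the depth of the shallowest limits members with few counts.

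Genes were kept by filterByExpr (minimum count 10, minimum total 15), which left 9213 of 23337 symbols. Counts were fitted in edgeR 4.0.16 (R 4.3.3) with TMM factors and 1 coefficient per group, and tested by quasi-likelihood with Benjamini-Hochberg adjustment over all genes tested, at 0.05. Standard errors and 95% intervals are from that fit. The script was tested on simulated data. All 25 library pairs within groups differed beyond counting noise (chi-square per degree of freedom, 6.82 to 47.8), and each library was counted on its own. Alternatives were other scalings, including DESeq2 1.42.0 size factors, other filters, DESeq2's Wald test, the compared groups only, the library index, a gene length trend, blocking on the numbers that column names carry, and each library left out.

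Symbols were matched to GENCODE M21 (GRCm38) for 22848 genes (97.9%, 1919 by older symbols). Levels per kb of members use the shortest principal transcript, and the length trend over all genes uses the longest. A word counted as a gene's own if its 50 bases occurred in no other annotated gene. Start windows are RefSeq's, on GRCm38.p6.

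Members and lists were chosen with earlier results of these data known. The genes named are the 3 highest and 3 lowest fold changes of members in each of 4 comparisons, the 5 highest and 5 lowest levels per kb, the paralog pairs, members with a special role, and the called genes of other lists. Mitochondrial ribosomal proteins were not among the members. A few genes that these rules would name are not reported here.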

Additional observations from a re-analysis of the deposited data

Results flagged for a closer look

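In groups of 4 or 5 libraries, the levels of 39 named members and 3 sums over members were examined for a library far from the rest of its group. Of 123 groups of values, 14 had one. The rule would flag about 1 in 20 (6.15) if values were independent and normally distributed. Members share libraries, and Rpl10l, Rpl30 and Rpl39l have few counts, so that rate does not hold here. None of the named members moved in opposite directions in all libraries of the genotypes.

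Library 80 (Ctrl stimulated) was apart for 5 members. Rpl22l1 stood at 23.2 CPM against 7.53 to 10.2 CPM in the other 3, Rpl23a at 34.1 against 27.0 to 27.7 CPM, and Rpl7 at 147 against 105 to 110 CPM. Rpl10l and Rpl39l, at 0.405 and 0.270 CPM against 0, rest on a handful of counts.

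Library 68 (LTβRΔN unstimulated) was apart for Rps24, at 8.00 against 19.5 to 21.2 CPM, and for Rpl10l, at 1.60 CPM against at most 0.155 CPM. Library 76 (LTβRΔN stimulated) was apart for Rpl41, at 266 against 371 to 400 CPM, for Rps24, at 14.98 against 26.1 to 29.9 CPM, and for Rpl30, at 0 against 1.25 to 1.55 CPM. Both libraries were thus low for Rps24 in their own group.

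The remaining values were single ones. Rps19 was at 35.5 CPM in library 70 (LTβRΔN unstimulated) against 21.5 to 22.9 CPM, and Rpl30 at 1.49 CPM in library 82 (Ctrl stimulated) against at most 0.237 CPM. Rpl39l was at 2.17 CPM in library 67 (LTβRΔN unstimulated) and at 1.87 CPM in library 75 (LTβRΔN stimulated), against 0 in the rest of each group.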

How the results depend on the processing

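The count of members called was 0 in each contrast fitted under the 28 alternatives, of which 16 left out one library (the replicate block was not fitted to the genotype comparisons, nor the compared groups alone to the interaction), and the smallest adjusted p of a member under any of them was 0.0577. Over the libraries left out, the members' median log2 fold change ran from −0.01 to 0.13 with stimulation in Ctrl, from 0.01 to 0.21 in LTβRΔN neutrophils, from −0.04 to 0.09 between stimulated and from −0.15 to 0.06 between unstimulated genotypes, and from −0.05 to 0.16 in the interaction. These shifts are below the spread between libraries of a group (pooled SD 0.208). Only scaling by library totals moved a median by more, to −0.18 in Ctrl neutrophils. Without libraries 68 and 76, chosen after seeing the data, the 5 medians were 0.07, 0.09, 0.10, 0.06 and 0.02.

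Of 25 fold changes of named members, 2 changed sign, both to about 0. Rpl22l1 in Ctrl neutrophils ran from −0.00052 (without library 80) to 0.66 over the libraries left out, and Rps4y2 in LTβRΔN neutrophils from −1.72 to 0.0067 (without library 69). The group medians of the members' share of counts without Rps9 were 0.618% and 0.517% in unstimulated and stimulated Ctrl and 0.575% in stimulated LTβRΔN neutrophils, fewer by construction, and the TMM-scaled share in unstimulated Ctrl was 0.641%. Among the translation lists together, 2 genes were called with stimulation in Ctrl and 1 in LTβRΔN neutrophils. Scaling by library totals gave 5 and 5, and DESeq2's Wald test 4 and 3. The library index and the compared groups alone gave 1 in Ctrl, removal of the length trend 3 in LTβRΔN neutrophils, and leaving out libraries 1 to 3 in Ctrl and 1 in LTβRΔN neutrophils. The cause was not tested.

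The numbers in the column names recur in both treatment labels for 7 pairs of libraries. The correlations of their deviations were 0.0214 to 0.0694, and 13 of 14 libraries correlated best with their own number. What the numbers stand for is not given. The main fit did not use them as pairs, so its errors for stimulation ignore whatever libraries with the same number share. With that replicate block 0 members were called, 3 genes of the translation lists were called in Ctrl and 2 in LTβRΔN neutrophils, and the members' medians were 0.08 in Ctrl and 0.11 in LTβRΔN neutrophils. Rpl26, Rpl30, Rpl39l and Rpl10l did not pass the filter of the main fit. Without a filter on low counts 83 members were tested and 0 called, and Rpl26 had 0 counts in every library.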
